A study of Mus musculus with 25 samples.

Results

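The chromatin accessibility peaks assigned to the tumour necrosis factor (TNF) ligand and receptor families, their Traf and Tradd adaptors and the Tnfaip genes were examined in mouse CD8+ T cells. A peak was a member when its midpoint lay nearer to the start of one of these genes than to the start of any other protein-coding gene of the GENCODE vM39 annotation (build GRCm39). This rule used position alone and found 99 of the 13527 peaks in the count table. The members were nearest to 32 of the 55 annotated genes of the set, with 22 peaks at 7 ligand genes, 39 at 15 receptor genes, 13 at 5 adaptor genes and 25 at 5 Tnfaip genes. Nearness does not show that a peak acts on the gene it is named for. Each peak is named here by that gene and by the distance of its midpoint from the gene's start, with a plus sign for the downstream side.

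All cells came from the spleen and lymph nodes of individual female C57BL/6 mice and were CD8+ T cells that bound an OVA:Kb tetramer, termed T_FGS because they recognize a peptide shared by the fetus and the skin graft. Naive mice (3 libraries) were neither grafted nor mated. Sensitized mice (4 libraries) had received a 2W-OVA.BALB/c male skin graft. N+P mice were unsensitized females mated with 2W-OVA.BALB/c males and sampled after delivery, and their T_FGS were sorted into a PD1- subset (C1, 3 libraries) and a PD1+CD73+ subset (C5, 3 libraries). S+P mice were grafted first and then had the same semi-allogeneic pregnancy, and their T_FGS were sorted into PD1- (C4), PD1+CD73+ (C5) and PD1+CD73- (C7) subsets with 4 libraries each. The sort on PD1 and CD73 followed flow cytometry clusters, so each C group is a gate and not a whole response. The paper describes sorting the T_FGS of each group into its prevalent subsets, but the labels of Naive and Sensitized libraries name no gate.

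TNF family ligands are mostly made as membrane proteins that bind receptors on neighbouring cells. Receptors with a death domain, such as Fas and Tnfrsf1a, can drive apoptosis, whereas costimulatory receptors without one, such as Tnfrsf9 (4-1BB) and Tnfrsf18 (GITR), recruit Traf proteins that switch on NF-kB and kinase pathways. In CD8+ T cells the family covers both killing, through Fas ligand, and survival after antigen encounter, and Tnfaip3 (A20) removes ubiquitin chains to limit NF-kB signalling.

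The libraries held between 2430890 and 25419715 counts in peaks (median 8197552), with the lowest total in S+P C4 replicate 1. Levels below are normalized counts, the raw count divided by the library's DESeq2 size factor. An accessibility signal is an average over the cells of a library, so a smaller share of cells with an open site and a less open site in every cell cannot be told apart. Peaks lay within 1000 bp of the starts of 6 of 8 CD8 T cell markers (Cd8a, Cd8b1, Cd3e, Cd3d, Cd3g and Lck, not Cd2 or Cd28) and of none of the 6 B cell, 6 myeloid, 2 natural killer cell and 2 erythroid cell markers. Of the 3 CD4 T cell markers only Foxp3 had a peak in its window. Over all peaks, Sensitized replicates 3 and 4 correlated best with the mean of N+P C5 rather than their own group, and several other libraries, among them Sensitized replicate 1, S+P C4 replicate 1 and Naive replicate 3, also resembled another group more. Comparisons with Sensitized are therefore also given without replicates 3 and 4.

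Windows of 300 bp, 5 in all, around peak midpoints are printed to show the regions on which the results turn, read from the plus strand of GRCm39. Capitals mark the matches, on either strand, to 6 searched motifs, which are listed with their shares after the results. The Fasl windows belong to the peaks that differed most between S+P C5 and Sensitized T_FGS, and the first of them holds no match.
Fasl +101.2 kb, chr1:161514758-161515057: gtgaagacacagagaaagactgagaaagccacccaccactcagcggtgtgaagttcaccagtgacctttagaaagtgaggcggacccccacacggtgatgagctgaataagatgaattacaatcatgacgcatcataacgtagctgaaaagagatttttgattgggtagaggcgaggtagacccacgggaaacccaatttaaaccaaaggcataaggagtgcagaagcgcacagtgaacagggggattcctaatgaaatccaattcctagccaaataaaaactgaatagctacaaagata
Fasl +59.8 kb, chr1:161556167-161556466: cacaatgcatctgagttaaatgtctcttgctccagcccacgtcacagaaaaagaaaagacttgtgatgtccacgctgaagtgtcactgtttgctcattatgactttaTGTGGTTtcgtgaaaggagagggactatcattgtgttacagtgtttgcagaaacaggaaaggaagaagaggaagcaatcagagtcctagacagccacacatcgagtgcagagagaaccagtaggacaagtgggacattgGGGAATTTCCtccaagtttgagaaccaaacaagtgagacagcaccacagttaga
The window at Tnfrsf8 is from an intronic peak that was most accessible in the PD1+ subsets of S+P mice, and it holds 1 NFAT match.
Tnfrsf8 +9.0 kb, chr4:145032571-145032870: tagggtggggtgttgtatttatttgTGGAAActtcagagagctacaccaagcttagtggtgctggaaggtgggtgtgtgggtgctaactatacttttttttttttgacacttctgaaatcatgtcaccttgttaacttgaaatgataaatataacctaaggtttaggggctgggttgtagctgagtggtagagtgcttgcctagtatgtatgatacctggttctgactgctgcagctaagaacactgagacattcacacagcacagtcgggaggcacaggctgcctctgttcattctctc
The last windows are from peaks that were least accessible in these subsets. The Tnfaip3 window holds 2 overlapping NF-kB matches, and the Tnfrsf10b window 1 RUNX and 1 TCF/LEF match.
Tnfaip3 -101.6 kb, chr10:18992822-18993121: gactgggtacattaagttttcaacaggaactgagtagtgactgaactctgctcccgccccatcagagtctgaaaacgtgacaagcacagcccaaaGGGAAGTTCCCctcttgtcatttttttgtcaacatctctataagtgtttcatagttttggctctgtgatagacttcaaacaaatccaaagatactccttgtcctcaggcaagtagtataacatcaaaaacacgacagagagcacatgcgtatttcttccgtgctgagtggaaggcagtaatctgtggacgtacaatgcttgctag
Tnfrsf10b +7.6 kb, chr14:70012321-70012620: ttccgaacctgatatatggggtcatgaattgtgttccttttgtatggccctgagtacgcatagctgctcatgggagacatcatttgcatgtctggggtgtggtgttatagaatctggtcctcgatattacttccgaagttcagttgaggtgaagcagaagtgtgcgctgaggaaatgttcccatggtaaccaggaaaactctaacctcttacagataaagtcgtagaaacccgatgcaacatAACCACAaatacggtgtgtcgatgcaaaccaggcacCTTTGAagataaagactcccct

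The member peaks lay farther from gene starts than peaks in general. Of the 99 members, 26 (26.3%) lay within 1000 bp of a transcript start, against 56.7% of all peaks, and 28 lay in introns, 42 between genes and 3 in UTRs. The median distance to the gene start was 7756 bp for members and 1595.5 bp for all peaks, and 8 members lay more than 100 kb away. The median length was 911 bp against 963 bp. In the peak lists called for each group, 19 members (19.2%) overlapped a peak of all 7 lists, against 24.0% of all peaks, and 19 (19.2%) overlapped only the S+P C5 list, against 10.1%. The S+P C5 list is also the longest, with 11384 peaks, and S+P C5 replicate 1 is the deepest library.

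A peak was called opening or closing in the first named group when the adjusted p was under 0.1 and the log2 fold change was above 0.9 or below -0.9, in a DESeq2 Wald test over all peaks. By this rule 29 members (29.3%) at 17 genes were called in at least 1 of 11 comparisons, against 22.0% of all peaks. Of them 19 were only called opening, 9 only called closing and 1, Tnfsf18 -14.6 kb, was called in both directions. Of the 26 promoter members 3 were called (11.5%; Tnfrsf8 -0.1 kb, Tnfrsf9 +0.1 kb and Tnfrsf19 +0.4 kb), and 4.95% of all promoter peaks. Of the 73 other members 26 were called (35.6%), a smaller share than the 44.3% of all other peaks. In the heat map of the 29 peaks the N+P libraries resembled Naive at most of them, while the S+P C5 and C7 libraries stood at the other end of the scale, with most Sensitized and S+P C4 libraries between. These rows were selected by the calls, none of them between Naive and N+P, so the pattern follows in part from the selection.

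**Figure D1:**
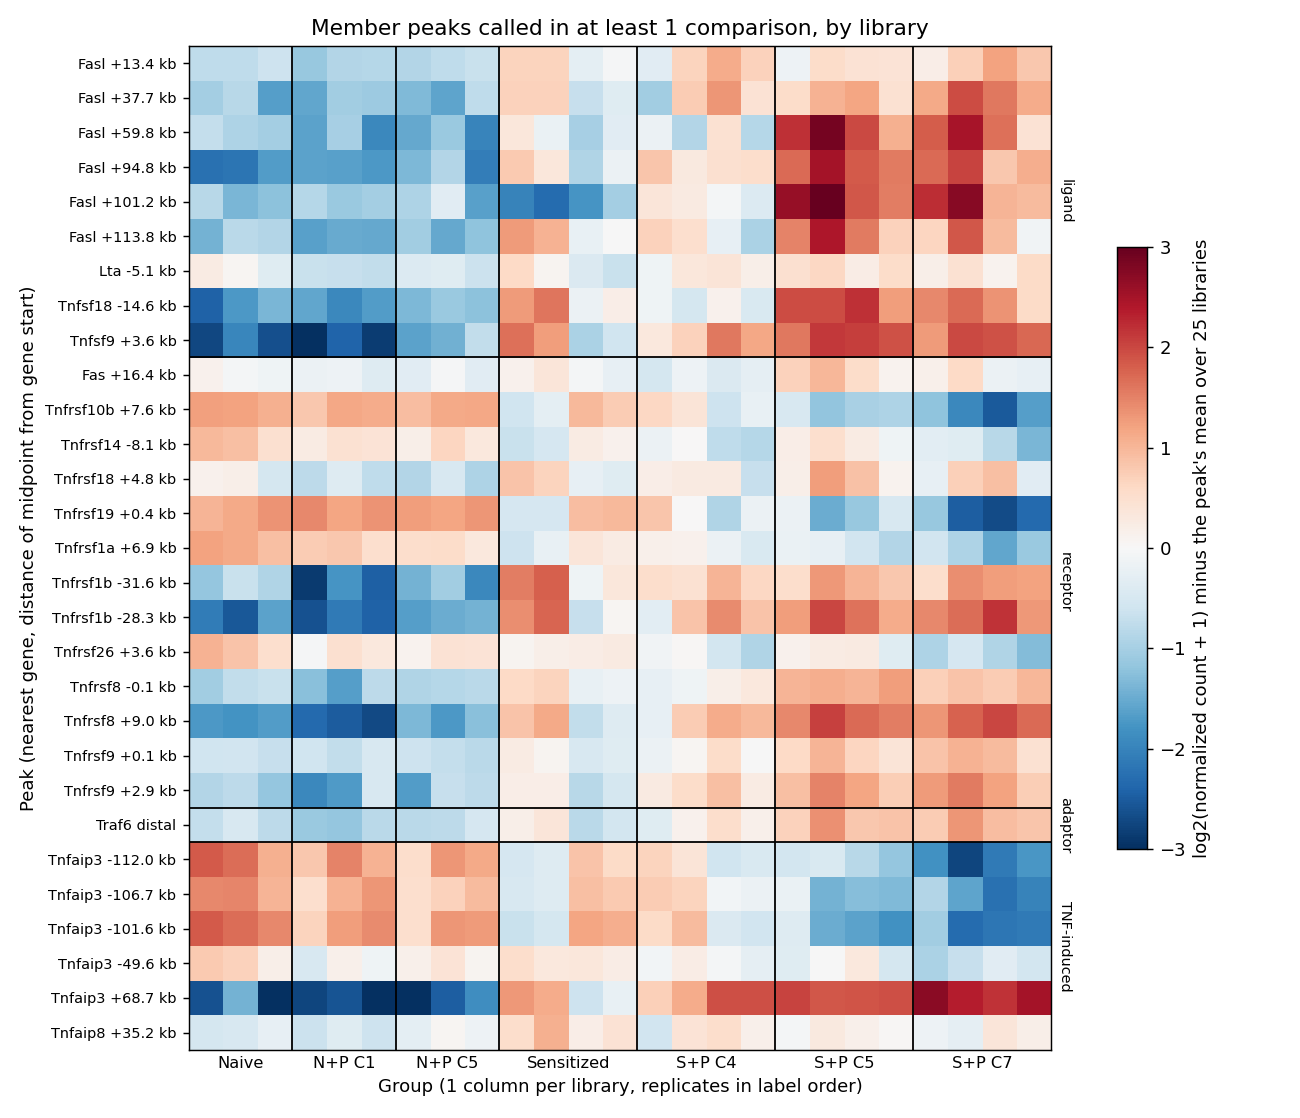
Each row is 1 of the 29 member peaks called in at least 1 comparison, each column 1 of 25 libraries, and the colour gives log2(normalized count + 1) minus the peak's mean over the libraries, with red for higher values. The N+P columns resemble the Naive columns, and Sensitized replicates 3 and 4 (the last 2 columns of their block) are nearer to them than Sensitized replicates 1 and 2 are. The rows were selected by calls in these same libraries, so the pattern is not a separate result.

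In Sensitized against Naive T_FGS, 12 members opened, where 7.22% of all peaks did, and 4 closed, where 1.4% of all peaks did. Ligand peaks gave 6 of the opening calls, 4 of them at Fasl, receptor peaks 4 and Tnfaip peaks 2, and no adaptor peak was called. The peaks with the largest increases were Tnfsf9 +3.6 kb (3.22, SE 0.50, adjusted p = 4.20e-09), Tnfrsf1b -28.3 kb (2.97, SE 0.42, adjusted p = 9.31e-11) and Tnfaip3 +68.7 kb (2.93, SE 0.48, adjusted p = 5.61e-08). The median log2 fold change was 0.12 over members and -0.01 over all peaks. Outside promoters the opening shares were alike, at 15.1% of members and 15.4% of all peaks. All 4 closing members lay outside promoters. With loess offsets, a scaling that depends on a peak's mean level, the split was 8 opening and 7 closing, where 5.25% and 2.65% of all peaks were called. Without Sensitized replicates 3 and 4 it was 16 and 7, where 9.44% and 5.73% were, with all 16 of the peaks above among them and each of these fold changes larger in size. This pair was left out for its likeness to N+P C5, so larger differences from Naive follow in part from that choice. The closing count was 2 without Naive replicate 1 or 2 or Sensitized replicate 1 or 2, and 7 without Sensitized replicate 3 or 4. The p-values rest on a spread between libraries that was fitted per peak over all 25 libraries, not over Sensitized and Naive alone.

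In unsensitized mice no member was called with pregnancy. In N+P C1 against Naive no member opened or closed, where 0.0% and 0.0205% of all tested peaks did. The filter of DESeq2 on low counts kept 32 members in that test, and over all 99 members 22 (22.2%) had an unadjusted p under 0.05, against 19.0% of all peaks. Outside promoters 17 of 20 such members and 784 of 975 such peaks were lower in N+P C1. With edgeR's quasi-likelihood test no member was called either. Tnfrsf1b -31.6 kb and Tnfrsf26 -0.9 kb were called closing with the filter off, with total counts, with the compared groups only, with the replicate number as a block and without Naive replicate 3. In N+P C5 against Naive no member was called, where 0.0262% of tested peaks opened and 0.0% closed. There the filter kept 24 members, 13 of the 99 (13.1%) had an unadjusted p under 0.05, against 17.5% of all peaks, and edgeR called none. Between N+P C5 and N+P C1 no member was called by DESeq2 or edgeR and 0.0% of all peaks opened or closed, with 3 of 99 members at an unadjusted p under 0.05 against 308 of all 13527 peaks.

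With pregnancy in sensitized mice, peaks of Fasl, Tnfsf9, Tnfrsf8, Tnfrsf9, Traf6 and Tnfaip3 (+68.7 kb) opened in both PD1+ subsets, while upstream Tnfaip3 peaks and those of Tnfrsf10b and Tnfrsf19 closed. In S+P C5 against Sensitized, 10 members opened, where 3.08% of all peaks did, and 5 closed, where 3.67% did. Outside promoters 13.7% of members opened against 6.78% of all peaks, and 5.48% closed against 7.94%. In S+P C7 against Sensitized, 10 members opened and 8 closed, where 3.84% and 8.03% of all peaks did, and outside promoters 12.3% of members and 8.20% of all peaks opened, and 9.59% and 16.4% closed. Both comparisons share the Sensitized libraries. In the PD1- subset, S+P C4, 1 member opened (Fasl +101.2 kb) and 1 closed (Tnfsf18 -14.6 kb), where 0.562% and 0.296% of all peaks did. The closing call was absent without S+P C4 replicate 4 (-1.06) or Sensitized replicate 2 (-0.80).

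These counts depended on Sensitized replicates 3 and 4 and on the scaling. The closing count in S+P C5 fell from 5 to 3 when either of these replicates was left out. Without the pair, S+P C5 against Sensitized gave 3 opening members, all at Fasl (+101.2, +94.8 and +59.8 kb), and no closing member, so none of the 5 closing calls remained, and over all peaks the shares also fell, to 2.16% and 1.09%. S+P C7 against Sensitized then gave 5 opening and 7 closing members, where 2.03% and 4.93% of all peaks were called, and S+P C4 against Sensitized 1 and 3, where 0.924% and 1.38% were. Loess offsets gave 4 opening with 5 closing members in S+P C5, where 1.45% and 4.79% of all peaks were called, and 4 with 8 in C7, where 1.71% and 8.83% were. In C4 they gave 0 with 1, where 0.554% and 0.436% of all peaks were called.

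The comparison of both pregnant PD1+CD73+ groups gave the most calls among the members. In S+P C5 against N+P C5, 18 members opened, where 10.3% of all peaks did, and 6 closed, where 6.97% did. Ligand peaks contributed 9 of the opening calls (40.9% of 22 ligand peaks), receptor peaks 7, and adaptor and Tnfaip peaks 1 each. Of the ligand calls 6 were at Fasl, which has 16 of the 22 ligand peaks, so the ligand share mostly reflects 1 locus. The median log2 fold change was 0.33 over members and 0.00 over all peaks. Outside promoters, however, 21.9% of members and 21.5% of all peaks opened, and 6.85% of members and 13.9% of all peaks closed. With loess offsets 15 members opened and 6 closed, and the shares over all peaks turned to 6.6% and 8.46%. Within S+P, 8 members opened and 3 closed in C5 against C4, where 3.12% and 2.0% of all peaks did, and with loess offsets the split was 3 and 5, where 1.84% and 3.4% of all peaks were called. Dropping C4 replicate 2 left 1 closing member, dropping C4 replicate 1 or C5 replicate 2 left 2, and dropping C4 replicate 3 gave 5. In S+P C7 against C5 no member opened, where 0.266% of all peaks did, 3 closed, where 2.11% did, and edgeR gave the same 3. With the replicate number as a block 5 closed in C7, where 2.96% of all peaks did, the additional peaks being Tnfrsf14 -8.1 kb and Tnfrsf10b +7.6 kb. The count was also 5 without S+P C5 replicate 4, 6 without S+P C7 replicate 1, and 2 when S+P C5 replicate 1 or either of the replicates 3 and 4 of C7 was left out.

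**Figure D2:**
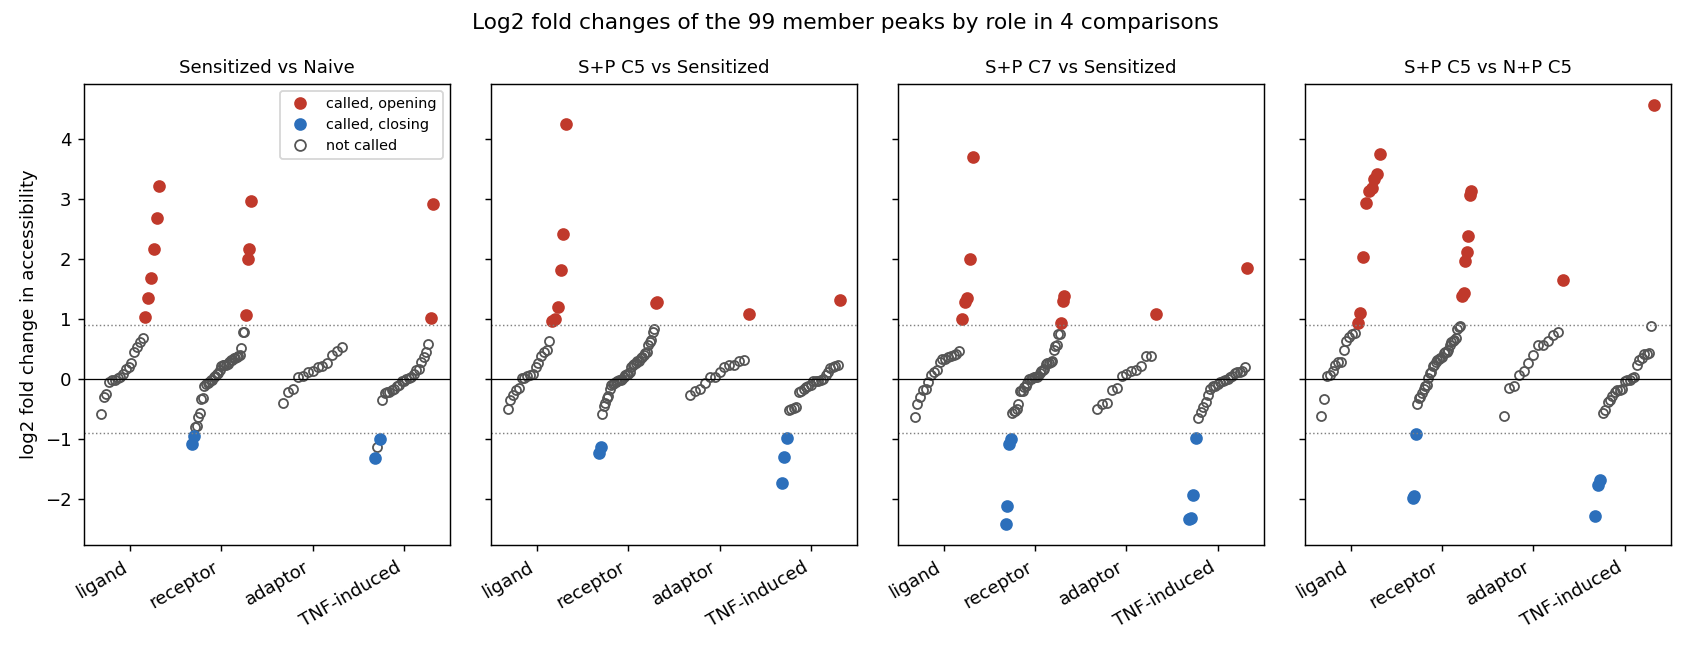
Log2 fold changes (y axis, higher values for more accessible in the first named group) of the 99 member peaks, sorted within each role, in 4 comparisons; filled points are called peaks and dotted lines mark 0.9 and -0.9. Called ligand peaks are all opening in these comparisons, and called closing peaks are at receptors and Tnfaip genes.

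Whether pregnancy went with a different change in sensitized than in unsensitized mice was tested as the difference between S+P C5 against Sensitized and N+P C5 against Naive. This difference was positive and called for 7 members, where 3.04% of all peaks were, and negative and called for 1, where 2.93% were. The positive calls were at Fasl (+101.2, +94.8 and +59.8 kb), Lta -5.1 kb, Tnfrsf9 +2.9 kb, a distal Traf6 peak and Tnfaip3 +68.7 kb, and the negative one at Tnfrsf10b +7.6 kb. With loess offsets the split was 5 positive and 4 negative, where 1.49% and 5.02% of all peaks were called. Leaving out Sensitized replicates 3 and 4 gave 3 and 1, of which 2 were among the 8, where 1.4% and 0.954% of all peaks were called. The total of 8 calls fell to 4 without Naive replicate 2 or Sensitized replicate 4 and to 5 without S+P C5 replicate 2 or Sensitized replicate 3. It rose to 13 without Naive replicate 3 or S+P C5 replicate 4, to 14 without Sensitized replicate 2, to 15 without S+P C5 replicate 1 and to 17 without Sensitized replicate 1.

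Among the ligands, Fasl, which encodes the membrane ligand that triggers apoptosis through Fas, had 16 peaks between 16.2 kb upstream and 117.4 kb downstream of its start. The peak at +101.2 kb (chr1:161514626-161515189, between genes) held 26.2, 17.7 and 19.6 normalized counts in the Naive libraries, 25.4, 21.3 and 22.6 in N+P C1 and 24.1, 37.0 and 14.4 in N+P C5. Sensitized libraries held 11.0, 8.63, 13.2 and 22.8, and S+P C4 61.2, 57.1, 45.3 and 34.9. The S+P C5 libraries reached 291, 471, 173 and 137 and those of C7 223, 320.0, 96.1 and 92.2. Every one of these 8 libraries lay above every library of the other groups, S+P C4 lay below them and above all Sensitized libraries, and S+P C5 replicate 2 was highest. The peak opened in S+P C5 against Sensitized (log2 fold change 4.26, SE 0.44, adjusted p = 5.24e-19), in S+P C7 against Sensitized (3.70, SE 0.44, adjusted p = 1.21e-14) and in S+P C4 against Sensitized (1.80, SE 0.46, adjusted p = 0.00819).

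The same peak opened in S+P C5 against N+P C5 (3.42, SE 0.48, adjusted p = 4.01e-11) and against S+P C4 (2.45, SE 0.43, adjusted p = 1.46e-06). Its log2 change with pregnancy was 4.26 in sensitized and 0.26 in unsensitized C5, a difference of 4.00 (SE 0.70, adjusted p = 1.66e-05). Loess offsets gave 1.91 for S+P C5 against Sensitized, 1.37 for S+P C7 and 2.16 for the difference, all still called, but turned S+P C5 against N+P C5 to -0.75 and ended the calls against S+P C4 (0.74) and in S+P C4 (1.17). Without Sensitized replicates 3 and 4 the values were 4.76 for S+P C5, 4.21 for S+P C7, 2.31 for S+P C4 and 4.51 for the difference, all called.

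The peak at +59.8 kb (chr1:161556119-161556514) was also highest in these subsets, with 1 RUNX and 1 NF-kB match in its printed window. S+P C5 libraries held 213, 344, 185 and 97.0 normalized counts and S+P C7 libraries 165, 259, 146 and 62.3. Sensitized libraries held 58.3, 40.0, 22.4 and 36.3, S+P C4 40.8, 24.7, 63.7 and 24.7 and N+P C5 15.1, 20.6 and 10.8. Every S+P C5 library lay above every Sensitized, S+P C4 and N+P C5 library, whereas the lowest S+P C7 library lay just below the highest S+P C4 library. The peak opened by 2.41 (SE 0.43, adjusted p = 9.91e-07) for S+P C5 against Sensitized, 2.00 (SE 0.43, adjusted p = 2.98e-05) for S+P C7 against Sensitized and 3.07 (SE 0.70, adjusted p = 0.00145) for the difference of pregnancy effects. With loess offsets the first was 0.40 and no longer called, the second turned to -0.03, S+P C5 against N+P C5 turned from 3.76 to -0.43, and the difference stayed called at 1.58. Without Sensitized replicates 3 and 4 the values were 2.09, 1.67 and, for the difference, 2.74, all called.

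The other called Fasl peaks were at +94.8, +113.8, +37.7 and +13.4 kb, and each of them opened in Sensitized against Naive. With loess offsets the calls in that comparison at +113.8 kb (0.33) and +37.7 kb (0.825) were lost. At +94.8 kb (chr1:161520774-161521849) S+P C5 libraries held 391, 683, 434 and 358, Sensitized 206, 152, 63.6 and 106 and Naive 24.8, 25.6 and 36.6 normalized counts, with no overlap between the 3 groups. Sensitized exceeded Naive by 2.17 (SE 0.37, adjusted p = 2.00e-07) on the log2 scale and S+P C5 exceeded Sensitized by 1.82 (SE 0.32, adjusted p = 6.84e-07). Both remained called with loess offsets (1.17 and 1.19) and without Sensitized replicates 3 and 4 (2.60 and 1.38). Its difference of pregnancy effects was 1.17 (SE 0.52, adjusted p = 0.085), which was not called with loess offsets (0.56), without Sensitized replicates 3 and 4 (0.74) or without N+P C5 replicate 1 (1.18) or 3 (0.91), Naive replicate 1 (1.27), 2 (1.26) or 3 (0.95), S+P C5 replicate 2 (0.94) or 3 (1.21) or Sensitized replicate 3 (0.95) or 4 (1.08). At +37.7 kb S+P C7 was highest, with 327, 584, 449 and 320.4 in its libraries against 217, 306, 341 and 204 in S+P C5 and 241, 240.1, 91.2 and 116 in Sensitized, and the call was made for S+P C7 against Sensitized (1.29, SE 0.37, adjusted p = 0.00196) but lost with loess offsets (0.88) and without Sensitized replicates 3 and 4 (0.80). At +113.8 kb the call for S+P C5 against Sensitized (1.01, SE 0.42, adjusted p = 0.0609) was lost with loess offsets (0.15), without Sensitized replicates 3 and 4 (0.50) and without S+P C5 replicate 2 (0.64) or Sensitized replicate 3 (0.80) or 4 (0.84), and at +13.4 kb that for Sensitized against Naive (1.03, SE 0.26, adjusted p = 0.0013) without Sensitized replicate 1 (0.89) or 2 (0.89).

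The Fasl promoter peak at +0.2 kb (chr1:161615416-161616404) was not called in any comparison. Mean normalized counts were 468 before any graft or mating, 458 in the N+P C5 gate, 638 after a graft alone, and 645 and 806 in the C5 and C7 gates of S+P, and the log2 fold change of S+P C5 against N+P C5 was 0.49, 95% interval 0.15 to 0.83. The called Fasl peaks lay downstream of the gene start, between 13.4 and 113.8 kb away, with uncalled peaks among them, as the plot of group means along the locus shows. In the uncalled Fasl peaks beyond +30 kb, the 7 group means ranged from 599 to 777 at +117.4 kb, from 349 to 569 at +83.5 kb, from 334 to 521 at +75.5 kb, from 859 to 1528 at +53.7 kb and from 177 to 318 at +37.0 kb. S+P C5 had the highest mean in each of these 5. In those nearer to the gene the means ranged from 1710.3 to 2188 at +21.8 kb, from 474 to 715 at +9.2 kb, from 212 to 492 at -6.3 kb and from 548 to 718 at -16.2 kb, and no group was highest throughout.

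**Figure D3:**
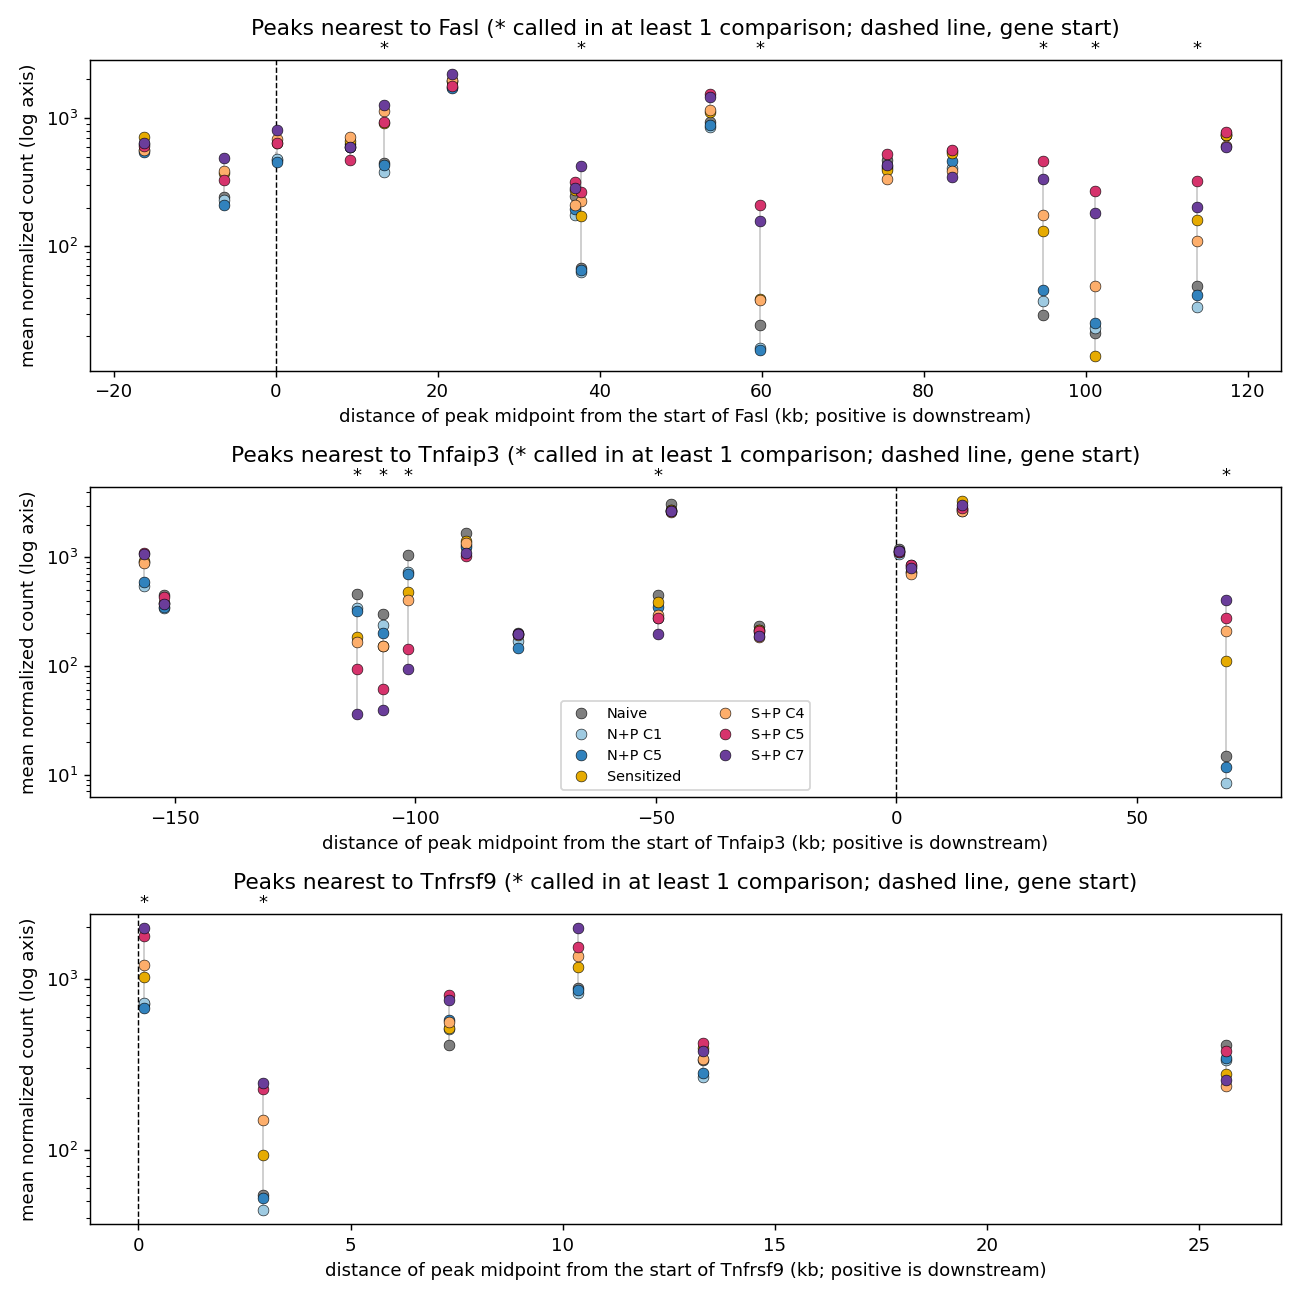
Mean normalized counts (log axis) of each group at every member peak nearest to Fasl, Tnfaip3 and Tnfrsf9, placed by the distance of the peak midpoint from the gene start in kb, positive downstream. Peaks with a star were called in at least 1 comparison; at Fasl the promoter peak at +0.2 kb is not starred and the widest gap is at +101.2 kb, where the S+P C5 mean is 268 and the Sensitized mean 13.9.

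Tnfsf18, the GITR ligand, had a peak 14.6 kb upstream (chr1:161307282-161307890) that was also the closest peak to Tnfsf4, the OX40 ligand gene, at 84606 bp. Naive libraries held 22.0, 36.4 and 46.7 normalized counts, Sensitized 299, 374, 108 and 139.9 and S+P C4 112, 84.4, 134 and 89.4. The PD1+ subsets of S+P held 479, 476, 562 and 296 in C5 and 337, 402, 313 and 182 in C7. Sensitized replicates 1 and 2 were within the range of S+P C5, and replicates 3 and 4 lay below it and above Naive. The peak opened in Sensitized against Naive (2.69, SE 0.38, adjusted p = 6.56e-11), in S+P C5 against N+P C5 (3.13, SE 0.37, adjusted p = 2.63e-15) and in S+P C5 against S+P C4 (2.12, SE 0.34, adjusted p = 4.43e-08), and those calls remained with loess offsets (1.72, 1.61 and 1.55). That for S+P C5 against Sensitized (0.98, SE 0.33, adjusted p = 0.0179) was lost with loess offsets (0.41), without Sensitized replicates 3 and 4 together (0.43) and without S+P C5 replicate 3 (0.86) or Sensitized replicate 3 (0.74) or 4 (0.80).

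Tnfsf9, which encodes the 4-1BB ligand, had 1 peak at +3.6 kb (chr17:57415664-57416228). Naive libraries held 12.4, 21.6 and 13.2 normalized counts, N+P C5 28.2, 31.5 and 51.7 and Sensitized 277, 209, 44.7 and 57.5. S+P C5 libraries held 262, 384, 372 and 334. Sensitized replicates 3 and 4 lay well below replicates 1 and 2 and still above all Naive libraries. Besides Sensitized against Naive, the peak opened in S+P C5 against N+P C5 (3.19, SE 0.47, adjusted p = 4.00e-10), a call lost with loess offsets (0.76). In unsensitized mice N+P C5 lay above Naive by 1.23 (SE 0.54) and above N+P C1 by 1.68 (SE 0.58), without overlap. Neither was called, and the filter on low counts left the first without an adjusted p. The difference of pregnancy effects was not called at this peak. The calls for S+P C5 (1.1998, SE 0.42, adjusted p = 0.0247) and S+P C7 (1.01, SE 0.42, adjusted p = 0.0395) against Sensitized were absent without Sensitized replicates 3 and 4 (0.47 and 0.28) and with loess offsets (0.34 and 0.13). For S+P C5 the call was also lost without Sensitized replicate 3 (0.90) or 4 (0.93) alone, and for S+P C7 without S+P C7 replicate 2 (0.92) or Sensitized replicate 3 (0.71) or 4 (0.74), while without Sensitized replicate 1 the S+P C7 value was 1.52.

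The lymphotoxin alpha gene Lta had a peak 5.1 kb upstream (chr17:35429127-35429643) in the cluster it shares with Tnf and Ltb. S+P C5 libraries held 327, 363, 277 and 346 normalized counts, N+P C5 176, 184 and 152, Sensitized 359.9, 250.3, 173 and 149 and Naive 282, 248 and 183. All S+P C5 libraries lay above those of N+P C5, and they overlapped Sensitized. Against N+P C5 the log2 fold change was 0.95 (SE 0.24, adjusted p = 3.17e-04), not called without N+P C5 replicate 3 (0.87) or S+P C5 replicate 2 (0.90), and with loess offsets (0.78). The difference of pregnancy effects was 0.97 (SE 0.33, adjusted p = 0.0299), not called without N+P C5 replicate 3 (0.89), Naive replicate 1 (0.83) or Sensitized replicate 3 (0.85) or 4 (0.80), nor with loess offsets (0.82) or without Sensitized replicates 3 and 4 together (0.57).

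The promoter peaks of Tnfsf10 (TRAIL, a death ligand) and Tnfsf14 (LIGHT) were not called, with S+P C5 against N+P C5 log2 fold changes of -0.61, 95% interval -0.98 to -0.24 and 0.75, 95% interval 0.38 to 1.11, respectively. The single Tnf peak, 1.4 kb downstream of the start of the gene for the founding cytokine of the family, was not called either. No peak was nearest to Cd70, Cd40lg, Ltb, Tnfsf4, Tnfsf8 or Tnfsf11, among 11 ligand genes without one. For Cd70 the closest peak lay 40831 bp away and was the Tnfsf9 peak, and for Ltb it lay 6208 bp away and was the Tnf peak.

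Among the receptors, Tnfrsf8, which encodes the activation antigen CD30, had an intronic peak at +9.0 kb (chr4:145032074-145033366). Naive libraries held 71.6, 67.9 and 73.8 normalized counts, N+P C1 46.5, 41.5 and 35.8 and N+P C5 92.6, 71.3 and 99.8. Sensitized held 429, 527, 143 and 183 and S+P C4 201, 405, 516 and 468. S+P C5 libraries had 650.2, 990.3, 781 and 696 and S+P C7 libraries 597, 814, 958 and 778. All of these exceeded every library of the other groups, and the Sensitized libraries exceeded all Naive and N+P libraries. The peak opened by 2.17 (SE 0.35, adjusted p = 1.48e-08) on the log2 scale for Sensitized against Naive, 1.28 (SE 0.31, adjusted p = 6.09e-04) for S+P C5 against Sensitized and 3.15 (SE 0.34, adjusted p = 1.11e-17) for S+P C5 against N+P C5. Loess offsets kept these calls (2.16, 1.22 and 2.99), but without Sensitized replicates 3 and 4 the second was 0.71 and not called. For S+P C7 against Sensitized the value was 1.30, and 0.72 and not called without the pair. The call for S+P C5 against S+P C4 (0.96, SE 0.31, adjusted p = 0.0245) was lost without S+P C4 replicate 1 (0.75) or S+P C5 replicate 2 (0.82).

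The Tnfrsf8 promoter peak at -0.1 kb (chr4:145041587-145042042) was called in 3 comparisons. S+P C5 libraries held 315, 331, 314 and 369 normalized counts, S+P C4 129, 141, 174 and 191 and N+P C5 81.5, 85.0 and 87.8, without overlap. S+P C5 had a log2 fold change of 1.97 (SE 0.23, adjusted p = 9.95e-16) against N+P C5 and 1.04 (SE 0.21, adjusted p = 2.62e-05) against S+P C4, the second being 0.71 and not called with loess offsets. Sensitized against Naive gave 1.08 (SE 0.23, adjusted p = 4.15e-05), or 0.62 and no call with loess offsets. Neighbouring peaks at -28.3 and -31.6 kb of Tnfrsf1b, the gene for TNF receptor 2, lie in introns of the neighbouring Tnfrsf8. At -28.3 kb (chr4:145001303-145002177) Naive libraries held 62.0, 45.2 and 87.7, Sensitized 707, 893, 166 and 278 and S+P C5 644, 1071, 835 and 582, with Sensitized replicates 3 and 4 again lowest in their group and above Naive. S+P C5 exceeded N+P C5 by 3.07 (SE 0.42, adjusted p = 5.23e-12), and no call was made between any S+P subset and Sensitized. At -31.6 kb Naive libraries held 56.5, 79.7 and 68.1, Sensitized 372, 447, 118 and 162 and S+P C5 184, 318, 259 and 225 normalized counts, and the peak opened in Sensitized against Naive (2.01, SE 0.37, adjusted p = 1.96e-06).

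The other 8 peaks of Tnfrsf1b, a receptor that recruits Traf proteins without a death domain, were not called. Their 7 group means ranged from 555 to 1339 at +25.1 kb, from 545 to 812 at +17.4 kb, from 1556 to 2255 at +10.7 kb and from 1123 to 1849.8 at +6.0 kb inside the gene. Closer to the start and upstream of it they ranged from 289 to 387 at +3.9 kb, from 913 to 1305 at +1.2 kb, from 417 to 842 at -3.3 kb and from 691 to 1107 at -7.8 kb. At Tnfrsf8 the uncalled peaks ranged from 268 to 588 at +14.8 kb and from 219.6 to 343 at -46.1 kb, with Naive and N+P means below all Sensitized and S+P means at the first.

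Tnfrsf9 encodes 4-1BB, a costimulatory receptor that T cells raise after antigen encounter. Its promoter peak at +0.1 kb (chr4:150998007-151000313) held 1672, 2233, 1716 and 1452 normalized counts in S+P C5 and 1982, 2274, 2129 and 1512 in C7. Sensitized libraries held 1297, 1175, 784 and 855, N+P C5 720.4, 670.2 and 632 and Naive 732, 735 and 680.1. Every library of these S+P subsets exceeded every Sensitized, N+P and Naive library. The promoter peak opened by 1.39 (SE 0.18, adjusted p = 9.09e-13) for S+P C5 against N+P C5 and 0.94 (SE 0.17, adjusted p = 3.40e-07) for S+P C7 against Sensitized. The second lies just above the threshold and fell below it without S+P C7 replicate 2 (0.86) or Sensitized replicate 3 (0.83) or 4 (0.86), and without Sensitized replicates 3 and 4 together (0.67).

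The intronic peak at +2.9 kb of Tnfrsf9 (chr4:151001634-151002261) opened in S+P C5 (1.27, SE 0.30, adjusted p = 4.16e-04) and S+P C7 (1.39, SE 0.30, adjusted p = 3.05e-05) against Sensitized. Its change with pregnancy was 1.27 in sensitized and -0.07 in unsensitized C5, a difference of 1.35 (SE 0.48, adjusted p = 0.034). With loess offsets none of these was called (0.45, 0.53 and 0.61), without Sensitized replicates 3 and 4 the first and the last were not (0.90 and 0.97) and the second was (1.01), and the difference was not called without Naive replicate 2 (1.26). The 4 uncalled Tnfrsf9 peaks had group means from 408 to 804 at +7.3 kb, from 827 to 1976 at +10.4 kb, from 265 to 419 at +13.3 kb and from 236 to 410.1 at +25.6 kb. At +10.4 kb S+P C7 was highest and the log2 fold change of S+P C5 against N+P C5 was 0.84, 95% interval 0.60 to 1.08. At +7.3 kb, 44.98% of the 32-base words of the 300-bp window occur elsewhere in the genome, so reads there can be lost to the authors' filter on unique positions.

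Tnfrsf18, encoding GITR, opened at +4.8 kb in S+P C5 against N+P C5 (1.43, SE 0.35, adjusted p = 1.96e-04), with 383, 805, 619 and 365 against 184, 241 and 178 in the libraries. Its promoter peak was not called (0.45, 95% interval 0.07 to 0.83), nor were the peaks at -4.1 and +7.5 kb, where group means ranged from 703 to 1181 and from 127 to 252. Fas, the death receptor bound by Fas ligand, opened in its intron at +16.4 kb in S+P C5 against S+P C4 (0.95, SE 0.20, adjusted p = 6.88e-05), a call lost without S+P C5 replicate 2 (0.81). The Fas promoter peak was not called (0.38, 95% interval -0.05 to 0.81 for S+P C5 against N+P C5).

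Closing peaks were found at 5 receptor genes. Tnfrsf10b, which encodes the mouse TRAIL death receptor, had 1 intronic peak at +7.6 kb (chr14:70011550-70013391). Naive libraries held 1426, 1403 and 1259.9 normalized counts, N+P C5 1155, 1334 and 1359.9 and Sensitized 401, 496, 1192 and 1031. S+P C4 held 929, 785, 390.4 and 514, S+P C5 429, 263, 308 and 318 and S+P C7 260.3, 157, 104 and 191. Sensitized replicates 3 and 4 were near the Naive and N+P libraries, and replicates 1 and 2 were at the level of S+P C4 replicates 3 and 4, so S+P C5 overlapped Sensitized while S+P C7 lay below it. The peak closed by -1.96 (SE 0.31, adjusted p = 8.26e-09) on the log2 scale for S+P C5 against N+P C5 and -2.12 (SE 0.29, adjusted p = 4.63e-11) for S+P C7 against Sensitized, the latter being -1.31 and still called without Sensitized replicates 3 and 4.

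The Tnfrsf10b calls for S+P C5 against Sensitized (-1.24, SE 0.29, adjusted p = 4.57e-04) and for the difference of pregnancy effects (-1.15, SE 0.44, adjusted p = 0.0491) were lost without Sensitized replicates 3 and 4 (-0.44 and -0.35). The difference was also lost without N+P C5 replicate 3 (-1.11), Naive replicate 2 (-1.18), S+P C5 replicate 2 (-1.06) or Sensitized replicate 3 (-0.87) or 4 (-0.99), and the call for S+P C5 against S+P C4 (-0.98) without S+P C4 replicate 1 (-0.77) or 2 (-0.88) or S+P C5 replicate 2 (-0.89). Loess offsets kept all of these calls.

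The Tnfrsf19 promoter peak at +0.4 kb (chr14:61283428-61284418), at the gene for the receptor TROY, was lower in the same groups. N+P C5 libraries held 395, 374 and 412 normalized counts, Sensitized 117, 115, 317 and 327, S+P C5 145, 58.2, 74.0 and 118 and S+P C7 74.8, 28.9, 24.9 and 31.8. Both of these S+P subsets lay below all Naive and N+P libraries, S+P C5 overlapped Sensitized replicates 1 and 2, and S+P C7 did not. The values were -1.98 (SE 0.41, adjusted p = 9.86e-06) for S+P C5 against N+P C5 and -2.43 (SE 0.39, adjusted p = 2.28e-08) for S+P C7 against Sensitized (-1.50 and called without Sensitized replicates 3 and 4). The call for S+P C5 against Sensitized (-1.14) was lost without Sensitized replicate 3 (-0.90) or 4 (-0.88), and was -0.21 without both. The call for S+P C7 against C5 (-1.29) was lost without S+P C5 replicate 1 (-1.04) or S+P C7 replicate 3 (-1.13).

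Tnfrsf1a, encoding the death domain receptor TNFR1, closed in its intron at +6.9 kb in Sensitized against Naive (-1.09, SE 0.23, adjusted p = 5.15e-05). Naive libraries held 524, 495 and 419.6 normalized counts and Sensitized 145, 193, 292 and 269, without overlap. Its calls for S+P C7 against Sensitized (-0.998) and S+P C5 against N+P C5 (-0.92) lie near the threshold, the first being lost without S+P C7 replicate 3 (-0.86) or Sensitized replicate 3 (-0.85) or 4 (-0.90), or without the last pair together (-0.58), and the second without N+P C5 replicate 1 (-0.89) or 2 (-0.87) or S+P C5 replicate 3 (-0.88) or 4 (-0.79). Tnfrsf26 +3.6 kb closed in S+P C7 against Sensitized (-1.08, SE 0.19, adjusted p = 4.10e-07, or -1.02 and called without Sensitized replicates 3 and 4) and against S+P C5 (-0.98, SE 0.19, adjusted p = 6.95e-05, lost without S+P C7 replicate 4 (-0.86)), and 5.58% of the 32-base words of its 300-bp window occur elsewhere in the genome. Tnfrsf14, encoding HVEM, which binds LIGHT and the inhibitory receptor BTLA, closed at -8.1 kb in Sensitized against Naive (-0.94, SE 0.25, adjusted p = 0.00163), a call lost without Naive replicate 1 (-0.85) or 2 (-0.89) or Sensitized replicate 1 (-0.81) or 2 (-0.84). The promoter peak of Cd27, a costimulatory receptor of naive and memory T cells, was not called (0.01, 95% interval -0.22 to 0.25 for S+P C5 against N+P C5).

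**Figure D4:**
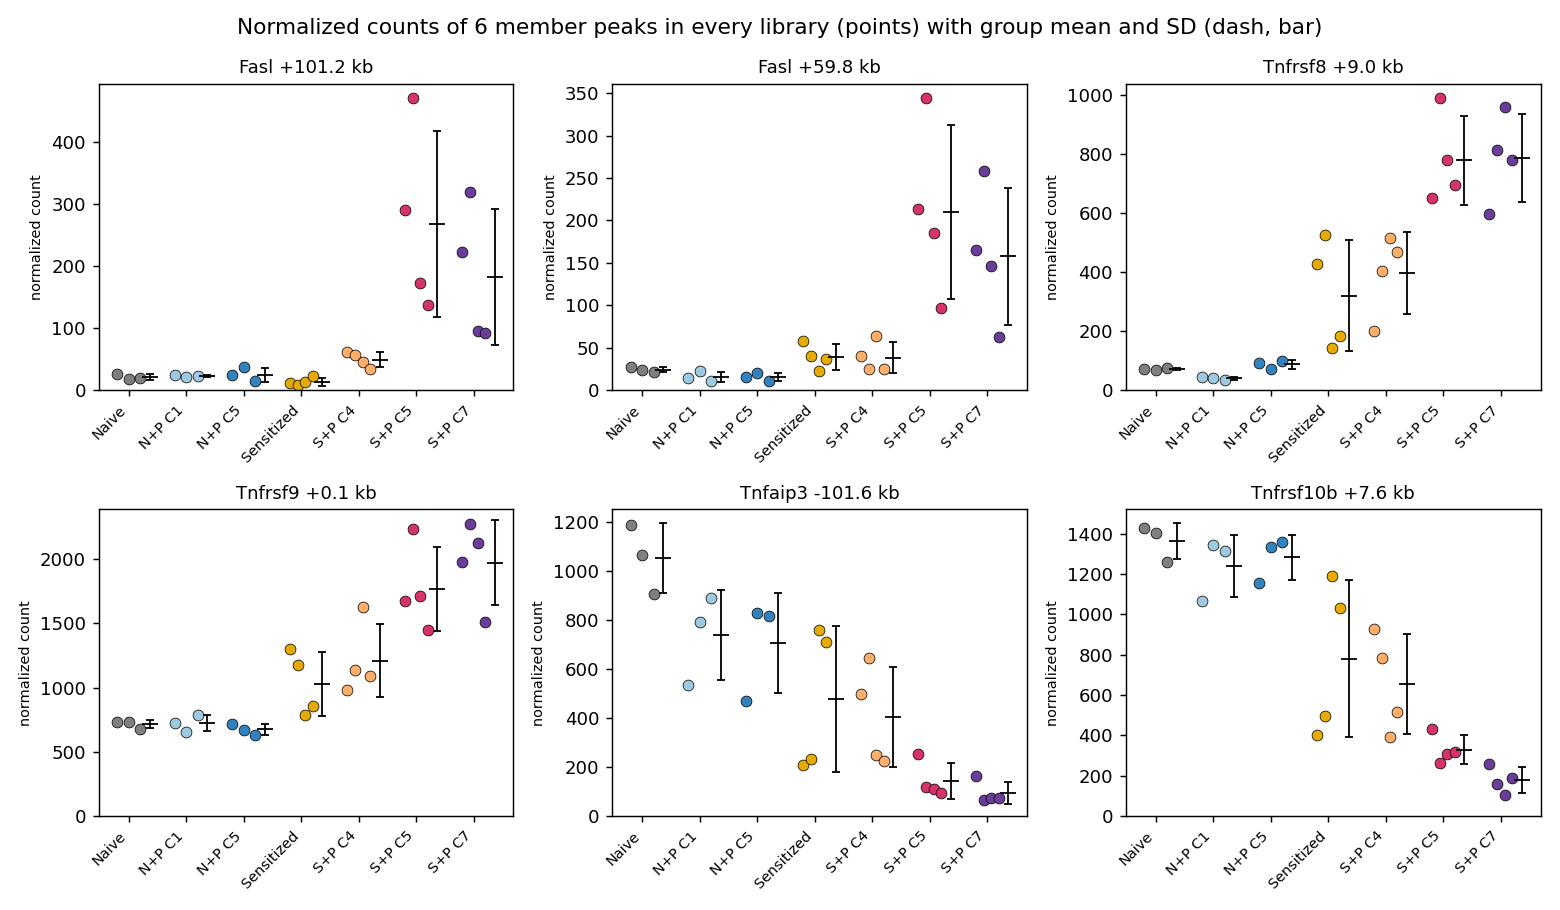
Normalized counts (y axis from 0) of 6 member peaks in every library, with 1 point per library and the group mean and SD beside the points. The points of S+P C5 and C7 lie above all others at Fasl +101.2 kb and Tnfrsf8 +9.0 kb, and at Tnfaip3 -101.6 kb and Tnfrsf10b +7.6 kb the Sensitized libraries fall into a high and a low pair.

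Among the adaptors 1 of 13 peaks was called in any comparison, where 22.0% of all peaks were, and it was a distal peak nearest to Traf6. Traf6 is a ubiquitin ligase that carries signals from TNF family and interleukin-1 receptors. Naive libraries held 306, 362 and 294 normalized counts, N+P C5 287, 293 and 355 and Sensitized 569.9, 652, 289.5 and 347. S+P C4 held 395, 556, 724 and 559.7, S+P C5 821, 1316, 884 and 919 and C7 855, 1258, 958 and 899. All libraries of the PD1+ subsets of S+P exceeded those of every other group. The log2 fold change was 1.66 (SE 0.24, adjusted p = 1.04e-10) for S+P C5 against N+P C5, 1.08 (SE 0.22, adjusted p = 2.65e-05) for S+P C5 against Sensitized and 1.10 (SE 0.22, adjusted p = 6.79e-06) for S+P C7 against Sensitized.

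The change of the distal Traf6 peak with pregnancy was 1.08 in sensitized and -0.04 in unsensitized C5, a difference of 1.12 (SE 0.34, adjusted p = 0.0142). Loess offsets kept the 4 calls (1.67, 1.08, 1.09 and 1.11). Without Sensitized replicates 3 and 4 the values against Sensitized were 0.69 and 0.70, and the difference was 0.73, none of them called. The promoter peaks of Traf1, Traf2, Traf5 and Traf6 were not called, with S+P C5 against N+P C5 log2 fold changes of 0.58, 95% interval 0.31 to 0.85 at Traf1, 0.13, 95% interval -0.05 to 0.32 at Traf2, 0.07, 95% interval -0.09 to 0.23 at Traf5 and -0.15, 95% interval -0.39 to 0.09 at Traf6. The Traf6 peak at +1.3 kb had group means from 154 to 218. Tradd and Traf4 had no peak nearest to them, and the 2 Traf3 peaks were not called.

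Among the Tnfaip genes, labelled TNF-induced in the figures by their name alone, Tnfaip3 had 14 peaks between 156.3 kb upstream and 68.7 kb downstream. Of these, 5, none of them in a promoter, were called in at least 1 comparison, where 44.3% of all peaks outside promoters were. The peak at +68.7 kb (chr10:18822532-18822962) was low in unsensitized mice, with 11.0, 26.6 and 6.94 normalized counts in Naive and 4.02, 12.3 and 19.2 in N+P C5. Sensitized libraries held 179, 158, 47.0 and 61.8, S+P C4 119, 157, 282 and 280.2, S+P C5 297, 266, 272 and 281 and S+P C7 481, 378, 329.7 and 415. S+P C7 lay above all other libraries, and every Sensitized and S+P library lay above every Naive and N+P library. It opened by 4.58 (SE 0.51, adjusted p = 2.26e-17) for S+P C5 against N+P C5 and 1.85 (SE 0.40, adjusted p = 4.31e-05) for S+P C7 against Sensitized (1.25 and called without Sensitized replicates 3 and 4). For S+P C5 against Sensitized the value was 1.33, and 0.73 and not called without the pair. With loess offsets the first remained called (1.69), whereas Sensitized against Naive (0.87), S+P C5 (0.19) and S+P C7 (0.70) against Sensitized were not. The difference of pregnancy effects (1.66, SE 0.70, adjusted p = 0.0718) was lost without N+P C5 replicate 1 (1.21) or 2 (1.69), Naive replicate 1 (1.80) or 2 (0.89), S+P C5 replicate 2 (1.68) or Sensitized replicate 3 (1.40) or 4 (1.46), without Sensitized replicates 3 and 4 together (1.06) and with loess offsets (0.81).

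Closing peaks lay upstream of Tnfaip3, at -101.6, -106.7 and -112.0 kb and, in 1 comparison, at -49.6 kb. At -101.6 kb (chr10:18992567-18993376) Naive libraries held 1189, 1065 and 905 normalized counts, N+P C1 534, 792 and 891 and N+P C5 472, 831 and 816. Sensitized held 208, 231, 761 and 709 and S+P C4 500.2, 645, 248 and 224. S+P C5 libraries had 255, 118, 109 and 93.3 and S+P C7 libraries 162, 66.4, 72.9 and 75.6. Both subsets lay below all Naive and N+P libraries, and Sensitized split into a low pair (replicates 1 and 2), which S+P C5 overlapped, and a high pair (replicates 3 and 4). The log2 fold change was -2.29 (SE 0.50, adjusted p = 3.15e-05) for S+P C5 against N+P C5 and -2.33 (SE 0.47, adjusted p = 7.84e-06) for S+P C7 against Sensitized, the latter being -1.21 and called without Sensitized replicates 3 and 4. For S+P C5 against Sensitized (-1.73, SE 0.46, adjusted p = 0.0027) it was then -0.60 and not called. The call for S+P C5 against S+P C4 (-1.48) was lost without S+P C4 replicate 2 (-1.15).

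At -112.0 kb (chr10:19003003-19003888) Naive libraries held 563, 497 and 328, Sensitized 109, 119, 282 and 232, S+P C5 106, 113, 86.6 and 69.4 and S+P C7 43.4, 22.1, 34.8 and 45.8 normalized counts. Sensitized lay below Naive and S+P C7 below S+P C5, without overlap. Its log2 fold changes were -1.32 (SE 0.35, adjusted p = 0.00177) for Sensitized against Naive, -2.31 (SE 0.34, adjusted p = 6.79e-10) for S+P C7 against Sensitized (-1.60 and called without Sensitized replicates 3 and 4) and -1.33 (SE 0.35, adjusted p = 0.00548) for S+P C7 against S+P C5. That for S+P C5 against Sensitized (-0.99) was lost without S+P C5 replicate 4 (-0.86) or Sensitized replicate 3 (-0.71) or 4 (-0.86), and was -0.28 without both. At -106.7 kb the fold change was -1.93 (SE 0.37, adjusted p = 2.93e-06) for S+P C7 against Sensitized and -1.68 (SE 0.39, adjusted p = 8.73e-05) for S+P C5 against N+P C5, while the call for Sensitized against Naive (-0.99) was lost without Naive replicate 1 (-0.93) or 2 (-0.91) or Sensitized replicate 1 (-0.80) or 2 (-0.82). Without Sensitized replicates 3 and 4 the value was -1.15 for S+P C7 against Sensitized and -1.78 for Sensitized against Naive, both called, and for S+P C5 against Sensitized it moved from -1.29 to -0.50 and was not called. At -49.6 kb the call was made for S+P C7 against Sensitized alone (-0.99, SE 0.19, adjusted p = 4.08e-06), was lost without S+P C7 replicate 1 (-0.89), and was -1.05 and called without Sensitized replicates 3 and 4.

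The Tnfaip3 promoter peak at +0.7 kb was not called (-0.02, 95% interval -0.21 to 0.17 for S+P C5 against N+P C5), nor were the other 8 peaks of the locus. Their group means ranged from 2696 to 3284 at +13.7 kb, from 709 to 857 at +3.1 kb, from 184 to 232 at -28.4 kb and from 2644 to 3087 at -46.8 kb. Farther upstream they ranged from 146 to 203 at -78.7 kb, from 1033 to 1684 at -89.4 kb, from 341 to 448 at -152.3 kb and from 548 to 1097 at -156.3 kb. Tnfaip8, which encodes a cytosolic regulator of cell survival, had 7 peaks, of which the intronic one at +35.2 kb opened in Sensitized against Naive (1.02, SE 0.22, adjusted p = 4.92e-05), with 478, 694, 377 and 446 against 227, 234 and 275 normalized counts and no overlap. That call was lost without Sensitized replicate 2 (0.81). The other Tnfaip8 peaks had group means from 1396 to 1608 at +0.4 kb, from 606 to 785 at +3.2 kb and from 568 to 916 at +37.6 kb, and from 198 to 313 at +49.0 kb, from 285 to 553 at +53.6 kb and from 415 to 595 at +73.9 kb. The peaks of Tnfaip1, Tnfaip8l1 and Tnfaip8l2 were not called.

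Of 39 other genes of the pathway, 32 had a peak, with 64 peaks in all. Of these 64 peaks, 3 opened (4.69%, against 7.22% of all peaks) and 2 closed (3.125%, against 1.4%) in Sensitized against Naive, and 2 opened (3.125%, against 3.08%) and 0 closed (against 3.67%) in S+P C5 against Sensitized. In S+P C7 against Sensitized 1 opened (1.56%, against 3.84%) and 2 closed (3.125%, against 8.03%). In S+P C5 against N+P C5 4 opened (6.25%, against 10.3%) and 3 closed (4.69%, against 6.97%), and in S+P C5 against S+P C4 3 opened (4.69%, against 3.12%) and 0 closed (against 2.0%). In S+P C7 against S+P C5 0 opened (against 0.266%) and 1 closed (1.56%, against 2.11%). The difference of pregnancy effects was called positive for 1 (1.56%, against 3.04%) and negative for 0 (against 2.93%). No peak was called in the other comparisons, for which the shares of all peaks are given above. The filter on low counts kept 33 of the 64 in N+P C1 against Naive and 29 in N+P C5 against Naive. Tank, which encodes a Traf-binding scaffold, had a peak 87.8 kb upstream with mean normalized counts of 85.5 for Sensitized, 240.1 for S+P C5 and 226 for C7, and a log2 fold change of 1.49 (SE 0.29, adjusted p = 1.36e-05) for S+P C5 against Sensitized, or 1.67 and called without Sensitized replicates 3 and 4. Its difference of pregnancy effects was also called (1.29, SE 0.45, adjusted p = 0.0325). Of the other Tank peaks, that at -84.2 kb opened in S+P C5 against S+P C4 (1.10) and that at -64.1 kb closed in S+P C5 against N+P C5 (-0.99). Nfkbiz, which encodes an atypical NF-kB regulator, opened at +84.5 and +68.4 kb in Sensitized against Naive (1.02 and 0.904, the second just above the threshold). At +68.4 kb it also opened in S+P C5 against Sensitized (1.03, or 0.77 and not called without Sensitized replicates 3 and 4). An intronic peak of Otulin, which encodes a linear ubiquitin hydrolase that restrains NF-kB, rose by 1.14 (SE 0.22, adjusted p = 6.32e-06) in Sensitized against Naive. A peak 26.1 kb downstream of the start of Nfkbia, encoding the NF-kB inhibitor, closed in S+P C7 against Sensitized (-1.29, SE 0.35, adjusted p = 0.00109), a call lost without Sensitized replicates 3 and 4 (-0.36). A peak assigned to Bid, encoding an apoptosis mediator cleaved below death receptors, lies in a UTR of Mical3 and also closed there (-2.03, SE 0.34, adjusted p = 7.25e-08, or -1.43 and called without the pair).

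Short motifs, 6 in all, were searched in 300 bp around every peak midpoint, on both strands: AP-1 (TGANTCA), RUNX (TGTGGTT), T-box (AGGTGTG), TCF/LEF (CTTTGA), NFAT (TGGAAA) and NF-kB (GGGA and TTCC with any 2 bases between them). An AP-1 match was in 22.2% of member windows and 9.16% of all windows, and outside promoters in 20.5% and 15.8%. RUNX matches were in 13.1% of members and 10.8% of all peaks, but outside promoters in 17.8% and 20.1%. T-box matches were in 8.08% and 6.06%, and outside promoters in 8.22% and 9.15%. A TCF/LEF match was in 25.3% of members and 16.2% of all peaks, and outside promoters in 30.1% and 25.5%, with matches in 5 of the 9 members that only closed and 4 of the 19 that only opened, promoter peaks included. NFAT matches were in 22.2% of members and 18.1% of all peaks, and outside promoters in 27.4% and 25.4%, with matches in 2 of the 9 that closed and 7 of the 19 that opened. Over whole peaks NFAT matches were in 5 of the 9 and 11 of the 19, and TCF/LEF matches in 8 of the 9 and 10 of the 19. In the windows, closing and opening members with a match numbered 0 and 4 for AP-1, 2 and 3 for RUNX, 0 and 1 for T-box and 1 and 2 for NF-kB. NF-kB matches were in 6 members (6.06%) and 1.66% of all peaks, and outside promoters in 5.48% and 1.83%. Over the whole length of the peaks, promoters included, they were in 6.06% and 5.01%. The median GC content of the windows was 49.3% for members and 57.3% for all peaks, and 48.0% and 48.7% outside promoters.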

How the data were processed

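ATAC-seq of tetramer-binding CD8+ T cells was analysed in 25 libraries of 7 groups. The counts of reads per merged peak were used as the authors deposited them; per the labels and methods, reads were trimmed with cutadapt 3.4, aligned to GRCm39 (mm39) with Bowtie2 2.2.9, filtered for unique positions and duplicates (Picard 2.21.8), and peaks were called per library with Genrich 0.6.1 in ATAC-seq mode, combined by group and merged with bedtools 2.27.1, and counted with deepTools. The deposited group peak lists carry a q-value per peak, made by the authors from the libraries of a group together, and were used for overlap of at least 1 bp; between 6.87% and 28.8% of a list's peaks had a q-value under 0.05. The merged table has only peaks that recurred in a group, so a site open in 1 library alone is not in it.

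Peaks were assigned to the nearest gene start, without conversion between builds, and 13522 of 13527 had one. DESeq2 1.42.0 (R 4.3.3) was fitted to all 25 libraries with group as the term, the Wald test and Benjamini-Hochberg adjustment over all peaks. Alternatives were edgeR 4.0.16 with TMM, total counts, loess offsets (limma 3.58.1, span 0.3), only peaks with 20 counts in 3 libraries, no independent filter, the compared groups only, an adjusted p under 0.05, nearest transcript starts, peaks within 100 kb, and each library left out. The fits were tested on simulated counts. Tables were made with numpy 2.4.6, pandas 2.3.3 and scipy 1.17.1.

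The members, the lists of other genes and markers, and the tests were chosen with earlier results of these data known. Peaks named were the 4 opening and 4 closing members with the smallest adjusted p in each comparison, the promoter peaks of a fixed set of genes, and all peaks of genes with at least 3 members and a call; others called are named as well. Same-numbered libraries within N+P and within S+P deviated together for C1 with C5 (r from 0.11 to 0.40), C4 with C5 (0.10 to 0.57) and C5 with C7 (0.52 to 0.77), and were taken as pairs in the block fit; the sources used here do not state that they came from one mouse. Sequences and motif matches were read from GRCm39; the sequence and position of 1 called peak are not reported here. Per the methods all ATAC-seq libraries shared a sequencing run; dates of sorting or library preparation are not given in the sources used here, so a day shared by a group cannot be told apart from the group.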

Additional observations from a re-analysis of the deposited data

Results flagged for a closer look

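Among groups of 4 libraries, 12 of 320 tested over 80 member peaks held a library far from its other 3, by Dixon's criterion. Chance gives about 1 in 20, so the flagged groups were not more frequent than by chance. At Tnfaip3 -101.6 kb, S+P C5 replicate 1 held 254.8 normalized counts while its group otherwise lay between 93.3 and 118, and S+P C7 replicate 1 held 162.4 while its group otherwise lay between 66.4 and 75.6. At Tnfaip3 -106.7 kb S+P C5 replicate 1 held 104.2 against 44.4 to 48.8, and at Tnfrsf19 +0.4 kb S+P C7 replicate 1 held 74.85 against 24.9 to 31.8. These 4 values belong to replicate 1 of the S+P subsets and to closing peaks, and each lies on the side of the Naive libraries. S+P C5 and C7 replicate 1 deviated together (r = 0.77), so the values are not independent of each other.

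The next 3 values belong to Sensitized replicate 1, with 609.1 at Tnfrsf9 +7.3 kb against 474.6 to 489.6 in the rest of its group, 2873 at Tnfaip3 +13.7 kb against 3400.0 to 3435, and 236.5 at Tnfaip3 -78.7 kb against 178 to 187. Sensitized replicate 2 held 1794 at Tnfaip8 +0.4 kb against 1474 to 1499. In S+P C5, replicate 2 held 1021 at Tnfaip8 +37.6 kb against 845.7 to 867.7, and 280.1 at the Fas promoter against 195.0 to 207. In S+P C4, replicate 3 held 199.5 at Tnfrsf8 -46.1 kb against 278 to 286, and replicate 4 held 210.4 at Tnfrsf18 +4.8 kb against 391.3 to 408.

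A difference between the pregnancy effects in sensitized and unsensitized C5 was called for 8 peaks by DESeq2's Wald test of the interaction, 7 positive and 1 negative, where 3.04% and 2.93% of all peaks were called, and the total ranged from 4 to 17 when single libraries were left out. On the log2 scale it was 4.00 (SE 0.70, adjusted p = 1.66e-05) at Fasl +101.2 kb, 3.07 (SE 0.70, adjusted p = 0.00145) at Fasl +59.8 kb and 1.12 (SE 0.34, adjusted p = 0.0142) at the distal Traf6 peak, and no single library's omission ended these calls. It was 0.97 at Lta -5.1 kb, 1.35 at Tnfrsf9 +2.9 kb, -1.15 at Tnfrsf10b +7.6 kb, 1.66 at Tnfaip3 +68.7 kb and 1.17 at Fasl +94.8 kb, each of which lost its call without 1 or more single libraries.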

How the results depend on the processing

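Of the fold changes of called members recomputed under each alternative, 1471 kept their direction and call, 145 kept the direction and lost the call, and 3 turned direction, all with loess offsets: Fasl +101.2 kb in S+P C5 against N+P C5 (-0.75), and Fasl +59.8 kb there (-0.43) and in S+P C7 against Sensitized (-0.031). The cause was not tested. Loess offsets also changed the number of called members to 9 in S+P C5 against Sensitized and 1 in S+P C4 against Sensitized. Without Sensitized replicates 3 and 4 the number was 3 in the former, 4 in the latter and 4 for the difference of pregnancy effects. With peaks within 100 kb only, it was 7 in S+P C5 against S+P C4 and 1 in S+P C4 against Sensitized, since called peaks lie farther away, which are Fasl +113.8 and +101.2 kb and Tnfaip3 -101.6 and -106.7 kb in the former and Fasl +101.2 kb in the latter. Fits of the compared groups only gave 1 in the latter comparison. For N+P C1 against Naive the number was 2 with total counts, with the independent filter off and with the compared groups only, in place of 0, and total counts gave 13 for the difference of pregnancy effects. Leaving out each replicate in turn, the numbers ranged from 0 to 2 for N+P C1 against Naive, from 1 to 3 for S+P C4 against Sensitized, from 2 to 6 for S+P C7 against S+P C5 and from 4 to 17 for the difference of pregnancy effects. In peaks of under 30 counts, as in Naive at Fasl +101.2 kb, counting error limits the fold change. With 3 or 4 libraries a group and Sensitized libraries in pairs, an uncalled peak may still differ.

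With the replicate number as a block, S+P C7 against S+P C5, whose same-numbered libraries were paired, gave 5 called members in place of 3. S+P C5 against S+P C4, paired likewise, gave 12 in place of 11. Elsewhere the block gave 2 for N+P C1 against Naive, 15 for Sensitized against Naive, 25 for S+P C5 against N+P C5 and 11 for the difference. Between mice of different groups the libraries share only a number, and in no S+P group did a library correlate best with the Sensitized library of its own number.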
